A study of Mus musculus with 11 samples.

Results

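The Gli2 gene body domain is an interval of 310 kb on chromosome 1 of the mouse genome, from 120670001 to 120980000 in build mm9, and its inner contacts were read from capture Hi-C maps of mouse embryos at embryonic day 9.5. Capture Hi-C joins DNA ends that lie close together in the nucleus, pulls down a chosen region with probes and counts the joined pairs, so that a contact is 1 counted pair of positions. Each map divides its region into 420 bins of 10 kb, and a member here is a pair of bins that both lie inside the interval. The interval holds 31 bins, of which 29 were kept. The pair of adjacent bins starting at 120940001 and 120950001 was left out, which removed 61 bin pairs. This left 435 members of 88410 bin pairs per map, and 354 of them join bins whose starts lie 30 kb or more apart. The members were chosen by the insulation of the same maps, that is, by the drop in contacts that cross each end of the interval. At the left end that score was -0.38 in the wild-type forelimb map, -0.30 in the forebrain map, -0.20 in the midhindbrain boundary map and -0.31 in the stop-cassette map, on a log2 scale where 0 is the map's mean level. At the right end it was -0.71, -0.65, -0.56 and -0.52 in the same order. Contacts inside an interval drawn in this way are high by construction, so their levels are given as a description, without a test. Both ends match boundaries called on the wild-type forelimb map alone, and the other maps were read over the same interval.

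The 4 maps came from wild-type forelimb, wild-type forebrain, wild-type midhindbrain boundary (the tissue at the junction of midbrain and hindbrain) and forelimb of mutant embryos with an inserted stop cassette. The wild-type maps merged 3 libraries each and the stop-cassette map merged 2, 11 in all, and only the merged maps were used, so that no spread between replicates could be had. The strain field names c57bl6.J X 129S6.sv for every library, but in wild-type forelimb the library titles also carry the tag CD1, so that strain background cannot be told apart from genotype in the forelimb comparison, or from tissue where wild-type forelimb is set against forebrain or midhindbrain boundary. The labels name the mutation as a stop cassette insertion, and the library titles of that group carry the tag 3xpA. The position of the cassette and any agent or Cre line are not in the labels used here. The tissues could not be checked against marker genes, because contact maps hold no expression values. The maps held 8823849 contacts in wild-type forelimb, 9489482 in forebrain, 9523316 at the midhindbrain boundary and 7662227 in the stop-cassette map. The members took 5.98%, 6.03%, 6.09% and 5.55% of them, in the same order. The median member at 30 kb or more held 497.5, 494, 487 and 329.5 contacts, and the poorest held 198, 171, 172 and 119. Every member therefore had enough contacts to be measured in every map, and none was lost to the filter on low counts.

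Gli2 encodes a zinc finger transcription factor that acts at the end of the Hedgehog pathway, mainly as an activator, and it works in the patterning of the limb bud and of the ventral brain and neural tube. Chromosomes fold into contact domains, also called topologically associating domains, within which loci meet more often than loci on either side of a boundary. The usual account is that cohesin extrudes loops of chromatin until it is held at boundary sites bound by CTCF. Several features are read from such maps: a general enrichment inside the domain, a peak at the corner where both ends meet, and a line of contacts that joins 1 end to the whole interior. In the RefSeq table of build GRCm38.p6 Gli2 is 220345 bases long, equal in length to 71.1% of the interval, and is read from the minus strand, so that its start faces the right end of the domain, which is the end with the higher coordinates. Its protein-coding neighbours are Tfcp2l1, a transcription factor of the grainyhead family, on the left and Inhbb, which encodes a subunit of activin and inhibin, on the right. The lncRNA gene Gm51642 and the microRNA gene Mir6346 lie within Gli2. No mm9 annotation was used, so that single bins were not assigned to exons, introns or the promoter.

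Contacts inside the Gli2 domain were 15% to 19% above what the distance between the bins alone gives in all 4 maps, and the surplus was largest for the bins farthest apart. Enrichment here is the number of contacts counted in the members over the number expected from the mean of all bin pairs of the map at the same distance and from the coverage factors of both bins; 1 is the map's mean. It was 1.19 in wild-type forelimb (95% interval 1.18 to 1.19), 1.17 in forebrain (1.16 to 1.17), 1.16 in midhindbrain boundary (1.16 to 1.17) and 1.15 in stop-cassette forelimb (1.14 to 1.16). These intervals are exact Poisson intervals and cover counting error only, since PCR copies, library preparation and embryos add spread that a merged map does not show. Of the 354 members, 307, 286, 302 and 305 lay above their distance mean in the order of the maps just given. That is 86.7%, 80.8%, 85.3% and 86.2%, beside 49.2% to 50.04% of all 11298 bin pairs of the same distances.

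**Figure D1:**
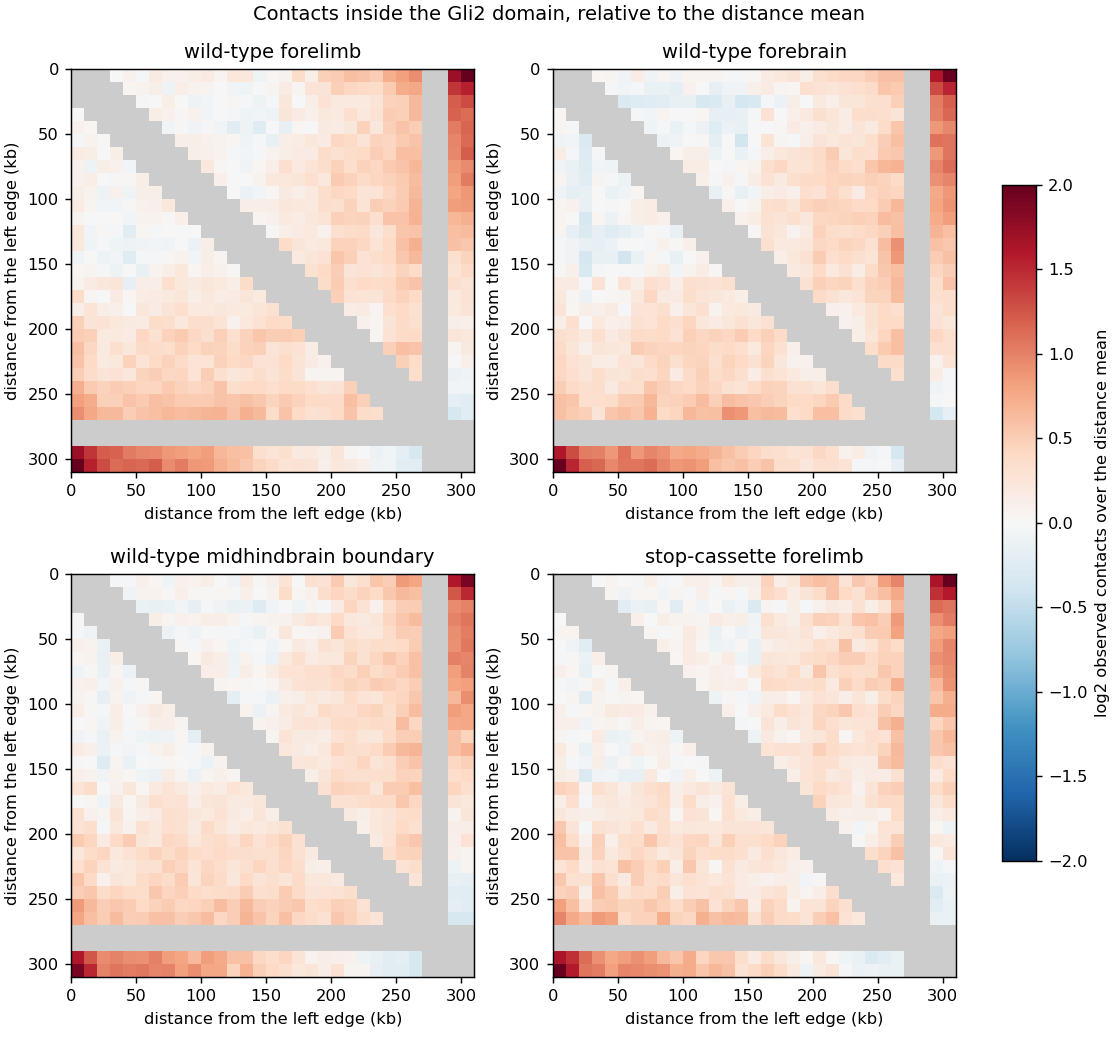
Observed contacts over the distance mean (log2 colour scale) for each member at 30 kb or more in the 4 maps, with both axes in kb from the left edge of the domain; grey marks pairs under 30 kb and the left-out bins. The darkest red sits at the corner that joins both ends, at 3.71 to 4.13 times the distance mean, and a red band along the right end reaches across the left part of the domain.

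The surplus grew with distance. At 30 to 90 kb the enrichment was 1.12 in wild-type forelimb, 1.09 in forebrain, 1.09 at the midhindbrain boundary and 1.08 in the stop-cassette map. At 100 to 190 kb it was 1.24, 1.24, 1.23 and 1.21. At 200 to 300 kb it was 1.77, 1.67, 1.67 and 1.69, and all 49 members of that range lay above their distance mean in every map. For contacts within a single bin the enrichment was 1.02, 0.97, 0.96 and 1.00, so the shortest contacts carried no such surplus in any map.

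**Figure D2:**
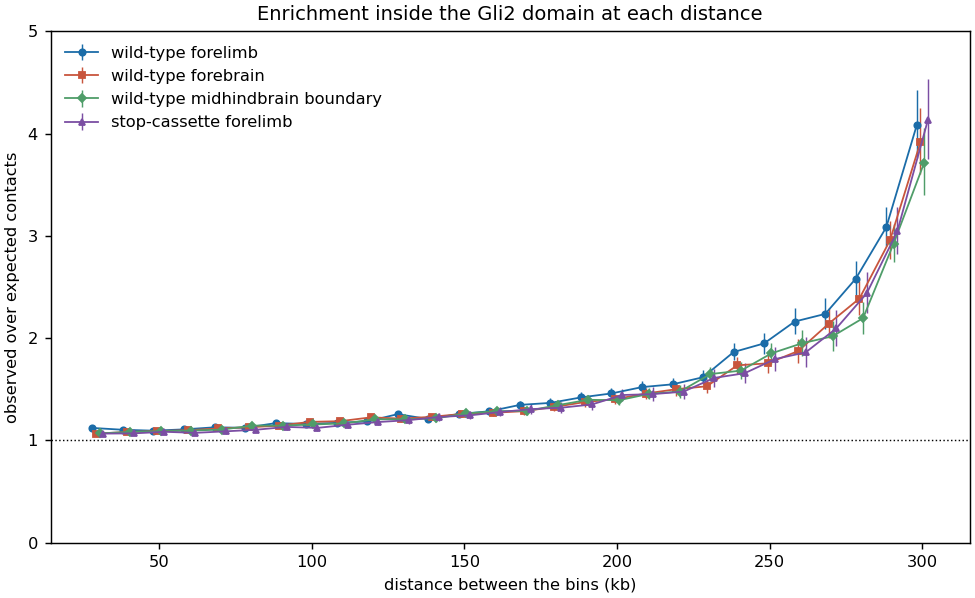
Enrichment of contacts inside the Gli2 domain (observed over expected, y axis) at each distance between the bins (x axis, kb), 1 line per map, set slightly apart sideways, with exact Poisson 95% intervals that cover counting error only. All 4 lines start near 1.1 at 30 kb and reach 3.71 to 4.13 at 300 kb, where a single pair is left.

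Relative to the distance mean, the 2 ends of the domain met each other more than any other members did. The bin at 120670001 and the bin at 120970001, 300 kb apart, shared 606 contacts in wild-type forelimb, 570 in forebrain, 509 at the midhindbrain boundary and 432 in the stop-cassette map. That was 4.08 times the distance mean (3.77 to 4.42) in wild-type forelimb, 3.92 (3.60 to 4.25) in forebrain, 3.71 (3.40 to 4.05) at the midhindbrain boundary and 4.13 (3.75 to 4.54) in the stop-cassette map. In each map this pair ranked 1 among the 390 pairs of the map at 300 kb, and the intervals of the 4 maps overlapped. This corner pair was nevertheless the shoulder of a stronger peak whose top lay outside the interval. The bin just left of the domain, at 120660001, and the rightmost bin, at 120970001, stood at 5.72, 5.39, 5.52 and 5.37 times the distance mean. The same outer bin with the bin just right of the domain, at 120980001, stood at 6.05, 5.56, 5.87 and 5.34. Contacts fell off again 1 bin farther out: 120660001 with 120990001 had 2.28, 2.3, 2.44 and 2.13. The point where both ends meet most often was therefore the same to within 1 bin in all 4 maps, and it lay at the outer side of the left end. Over the 25 members that join the first 5 and last 5 kept bins, the enrichment was 1.91 in wild-type forelimb, 1.73 in forebrain, 1.78 at the midhindbrain boundary and 1.84 in the stop-cassette map.

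The interior was lopsided, and its contacts converged on the right end, the end that the start of Gli2 faces. The rightmost bin, at 120970001, was above its distance mean with every kept bin up to 180 kb from the left edge in all 4 maps. It fell from about 4 at the left edge to 2.19, 2.11, 2.07 and 1.97 for the bin at 120720001, 250 kb away. It then sank below 1 with its nearest neighbours: with the bin at 120930001, 40 kb away, it stood at 0.86, 0.90, 0.80 and 0.91. The leftmost bin behaved differently. Its contacts with the bins 30 to 150 kb to its right lay between 0.94 and 1.16 times the distance mean in all maps, and among the kept bins they rose above 2 only with the last 2. With the left-out bin at 120950001 the leftmost bin already stood at 2.81, 2.80, 2.60 and 2.88. The bin at 120660001, just outside, held the left side of the corner peak. Its contacts with most of the interior were not read, so this difference between the ends holds for the members only. The 21 members that join either of the last 2 bins to another bin 200 to 300 kb away had an enrichment of 2.20 in wild-type forelimb, 2.13 in forebrain, 2.04 at the midhindbrain boundary and 2.02 in the stop-cassette map. The other 28 members of that range had 1.45, 1.31, 1.38 and 1.43. At 30 to 90 kb the order turned, with 0.94, 1.02, 0.90 and 0.94 for the last 2 bins and 1.13, 1.10, 1.11 and 1.09 for the rest.

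**Figure D3:**
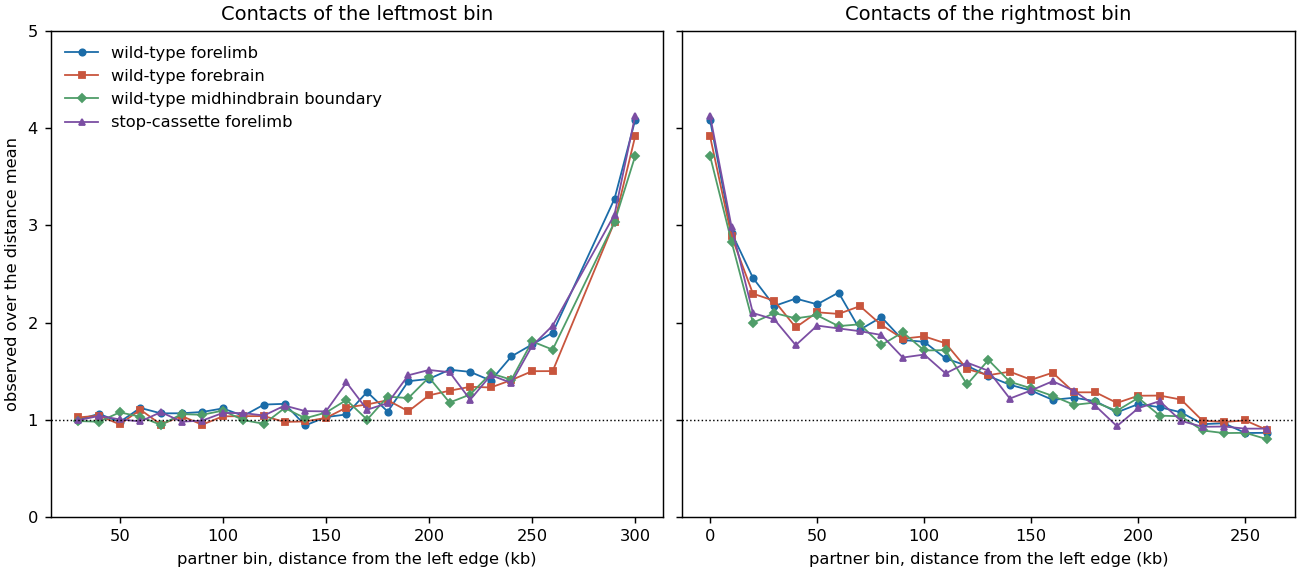
Observed contacts over the distance mean (y axis) of the leftmost kept bin (left panel) and the rightmost kept bin (right panel) with each partner bin, placed by its distance from the left edge (x axis, kb), 1 line per map; lines bridge the left-out bins, and partners under 30 kb away are not drawn. The left profile stays near 1 for most of the domain and climbs at its far end, while the right profile stays above 1.5 in every map for partners in the 100 kb next to the left edge.

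The domain was split by bin order into a left part (120670001 to 120770000), a middle part (120770001 to 120870000) and a right part (120870001 to 120980000). The left part had almost no inner enrichment: its 28 members stood at 1.04 in wild-type forelimb, 0.95 in forebrain, 1.00 at the midhindbrain boundary and 1.01 in the stop-cassette map. The middle part had 1.15, 1.14, 1.12 and 1.11 over 28 members, and the right part 1.13, 1.16, 1.09 and 1.08 over 24. Left with middle, over 97 members, gave 1.05, 1.02, 1.05 and 1.07. The high blocks were those that join the right part to another part. Middle with right gave 1.30, 1.32, 1.29 and 1.23, and left with right gave 1.53, 1.46, 1.47 and 1.46. The blocks are not matched for distance: left with right holds the farthest pairs, and pairs within a part are near ones. Left with middle and middle with right cover nearly the same distances. With the first 2 and last 2 bins removed, which takes out the corner pair and the lines of the last 2 bins, the 253 members that remained still had 1.17, 1.15, 1.15 and 1.14. The bins at 120920001 and 120930001, whose means over the maps were 1.36 and 1.42, stayed in.

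Contacts across single bin edges were read for nearby bins only, so they do not show the long-range contacts of the right end. The mean of observed over expected was taken in a square of 5 bins on either side of each edge, with all bins of the map used. Over the 411 edges of a map its median was 1.01 in every map. It was 1.02, 0.99, 1.02 and 1.03 at 120770001, between the left and middle parts, so that this edge was crossed about as often as a typical edge. It reached 1.29, 1.25, 1.23 and 1.22 at 120850001, above 95.1% to 96.8% of all edges. Towards the right end it fell, to 0.92, 0.97, 0.90 and 0.90 at 120940001. It was 0.50, 0.49, 0.55 and 0.59 at the right end itself, where only 0.73% to 1.46% of edges were lower. It was 0.69, 0.69, 0.74 and 0.72 at the left end, where 4.38% to 6.57% were lower. Between 120720001 and 120930001, where the square lies inside the domain or reaches only its left-out and right-end bins, no edge fell below 0.94 in any map. Within 50 kb of an end the square also holds bins outside the domain, so those values mix inner and outer contacts.

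Among single bins, the highest mean over the 4 maps was that of 120970001, at 1.63 times the distance mean with the other kept bins. The bins at 120960001 and 120930001 followed with 1.53 and 1.42. The left-out bins at 120940001 and 120950001, which the numbers above do not use, had 1.43 and 1.504 and so sat on the same rise towards the right end. The means of single bins are not matched for distance. Bins near an end have partners up to 300 kb away, where the surplus was largest, and bins in the centre do not. The lowest were 120820001 with 1.12, 120810001 with 1.13 and 120690001 with 1.14. The last of these was the bin that differed most between tissues: 1.21 in wild-type forelimb, 1.09 in forebrain, 1.12 at the midhindbrain boundary and 1.12 in the stop-cassette map. The bins of the interval ranged widely in coverage, with factors from 0.778 to 1.57 around the map's typical bin, and these factors enter each expected count.

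**Figure D4:**
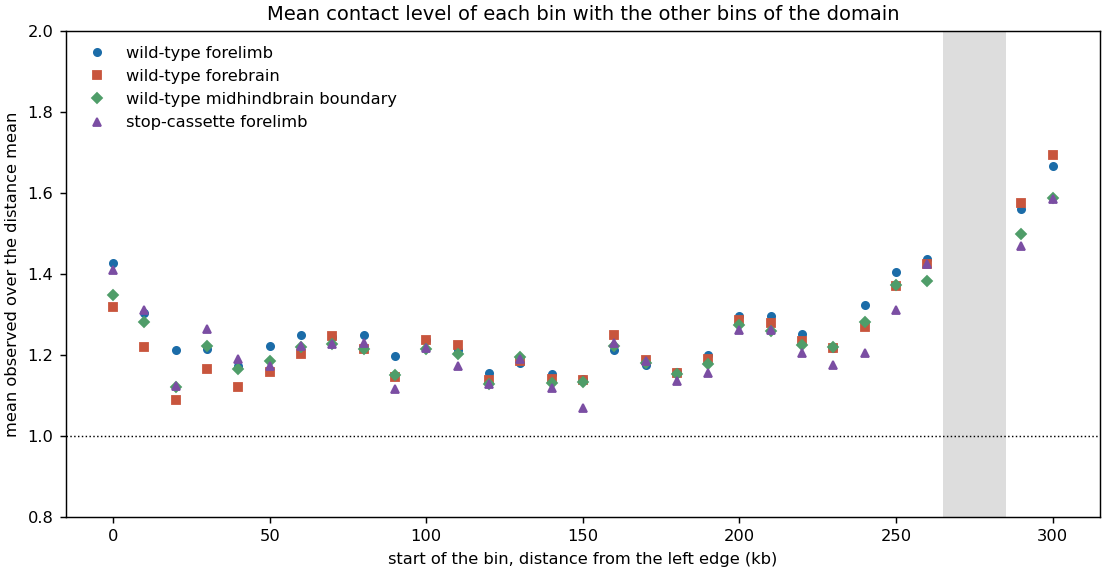
Mean of observed over the distance mean (y axis, not starting at 0) of each of the 29 kept bins with the other kept bins at 30 kb or more, placed by the distance of the bin from the left edge (x axis, kb), 1 marker per map; the grey band marks the left-out bins and the dotted line the distance mean. All markers lie above 1, and the rightmost bin stands at 1.59 to 1.69. Bins near an end have farther partners than bins in the centre, so the means are not matched for distance.

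Touching member pairs were grouped under their most extreme pair. Behind the corner group of 10 pairs, the highest group was that of 120720001 with 120970001, which comprised 15 pairs. Next came 3 groups that share the bin at 120930001, which adjoins the left-out bins. Its pair with 120670001, 260 kb away, had 246, 171, 190 and 157 contacts and stood at 1.90, 1.5, 1.72 and 1.97. Its pair with 120800001, 130 kb away, had 409, 432, 366 and 248 contacts and stood at 1.64, 1.88, 1.61 and 1.58. Its pair with 120740001, 190 kb away, stood at 1.59, 1.62, 1.51 and 1.38. Forebrain was the lowest map for the first of these pairs and the highest for the other two, and the counting intervals of forebrain and wild-type forelimb overlapped for each. The lowest group was 120930001 with 120960001, the bins on either side of the left-out pair. They lie 30 kb apart and had 730, 637, 697 and 547 contacts, or 0.80, 0.79, 0.80 and 0.92 times the distance mean. The other low pairs all joined a bin of the left part, 120690001 or 120710001, to a bin 70 to 120 kb to its right. Their lowest was 120690001 with 120810001, at 0.93, 0.79, 0.83 and 0.96. The remaining 3, 120710001 with 120810001, 120710001 with 120790001 and 120690001 with 120760001, lay between 0.84 and 0.97 in all maps. On raw counts without coverage factors all 4 of these pairs turned to the high side of the distance mean, with mean log2 levels from 0.098 to 0.49.

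The pattern inside the domain was shared by the maps. Pearson's r of log2 observed over the distance mean between 2 maps, over the 354 members, ranged from 0.881 (forebrain with stop-cassette forelimb) to 0.939 (wild-type forelimb with midhindbrain boundary). Without the first 2 and last 2 bins, over 253 members, it ranged from 0.788 to 0.893. The bin pairs share bins and are not independent, so these values only describe how alike the maps are. The stop-cassette map, which had the fewest contacts, gave the lowest values for all 3 of its pairings without the end bins.

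Compared with wild-type forelimb, the stop-cassette map had slightly fewer contacts inside the domain. No single member was called by the 2-fold rule given below, with or without the coverage factors. The size of the deficit and the count of members at any fold did depend on these factors. The enrichment differed by -3.17%, a log2 ratio of -0.046 with an exact binomial (Clopper-Pearson) 95% interval of -0.056 to -0.037 that covers counting error only. On raw counts without coverage factors the log2 ratio was -0.19. The deficit was -0.047 at 30 to 90 kb, -0.030 at 100 to 190 kb and -0.066 at 200 to 300 kb. It was largest between the middle and right parts, at -0.085 (-0.10 to -0.065), and of the other sign between left and middle, at 0.024 (0.0044 to 0.043). Of the 29 bins, 26 were lower and 3 higher, with the lowest at 120910001 (-0.14) and 120690001 (-0.12). A two-sided exact binomial test compared the contacts of each member in both maps, with Benjamini-Hochberg adjustment over all 35433 bin pairs of the map from 30 kb to 1 Mb. Calls required an adjusted p under 0.05 together with a change of at least 2-fold. By that rule 0 of 354 members were called, beside 0.0282% of all bin pairs. At any fold, a rule chosen after seeing the data, 0 members passed, beside 0.0762%, but 69 did without coverage factors. By fold alone, 0 members were 1.5-fold higher, beside 5.62% of all pairs, and 0 were 1.5-fold lower, beside 3.36%. The members held more contacts than the average pair, with a median of 827 over both maps against 136, which narrows their scatter. At an unadjusted p under 0.05 there were 50 members, 12 higher and 38 lower, or 14.1% beside 9.45% of all pairs. Pairs with more contacts reach a given p at smaller ratios, so these 2 shares are not matched for depth. The median log2 ratio was -0.039 over the members and 0.015 over all pairs. The largest ratios were 0.41 for 120710001 with 120830001 (205 against 231 contacts, adjusted p = 0.245 by the exact binomial test) and -0.37 for 120790001 with 120890001 (219 against 399, adjusted p = 0.201).

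Wild-type forelimb and forebrain differed in the left part of the domain and at its corner. Over all members the forelimb enrichment was 1.73% higher, at a log2 ratio of 0.025 (0.016 to 0.034). Within the left part it was 0.12 higher (0.098 to 0.15), and over the 25 corner members 0.15 higher (0.10 to 0.19). The last 2 bins went the other way, with -0.058 (-0.083 to -0.034) for their contacts with the other bins. Forebrain was the higher map for these bins at 30 to 90 kb and at 100 to 190 kb (1.40 against 1.31), and forelimb at 200 to 300 kb, as given above. The bin at 120690001 had the largest difference of any bin, 0.19 (0.15 to 0.23). By the 2-fold rule 0 members were called, beside 0.0198% of all 35409 pairs. At any fold 3 members passed, 0.847% of the 354, beside 0.381% of all pairs. By fold alone 0 members were 1.5-fold higher, beside 3.89%, and 0 were 1.5-fold lower, beside 2.78%. At an unadjusted p under 0.05 there were 49 members, 34 higher and 15 lower, or 13.8% beside 8.97% of all pairs. These shares are not matched for depth, with a median of 1010.5 contacts over both maps in members against 154 in all pairs. The largest ratios were 0.39 for 120700001 with 120930001 (292 against 205 contacts, adjusted p = 0.204 by the exact binomial test) and -0.30 for 120830001 with 120970001 (318 against 371, adjusted p = 0.282). The 3 pairs that passed at any fold, singled out after their values were seen, all lay in the left part and were all higher in forelimb. The pair 120690001 with 120720001 had 1121 contacts in wild-type forelimb, 875 in forebrain, 1021 at the midhindbrain boundary and 683 in the stop-cassette map. Its log2 ratio of forelimb over forebrain was 0.32 (0.19 to 0.45; adjusted p = 0.00137, exact binomial test with Benjamini-Hochberg adjustment). The pair 120690001 with 120740001 had 668, 515, 571 and 387 contacts and a ratio of 0.35 (0.19 to 0.52; adjusted p = 0.0154, same exact test). The pair 120720001 with 120750001 had 1343, 1094, 1267 and 985 contacts and a ratio of 0.22 (0.11 to 0.34; adjusted p = 0.0471, same exact test). In observed over expected the forebrain map was the lowest of the 4 for each of these pairs, at 0.82, 0.85 and 0.93. With the variance inflated to the scatter of all tested pairs, which was 1.48 times the counting variance, 0 of the 3 passed, and without coverage factors 11 members did.

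Wild-type forelimb and midhindbrain boundary differed by 2.16% over all members, at a log2 ratio of 0.031 (0.022 to 0.040) with forelimb higher. The difference was 0.10 (0.062 to 0.15) at the corner, 0.058 (0.032 to 0.083) within the left part and 0.055 (0.025 to 0.084) within the right part. Between the middle and right parts the interval spanned 0, from -0.0083 to 0.027. By the 2-fold rule 0 members were called, beside 0.0621% of all 35403 pairs, and at any fold 1 was, or 0.282% of the members, beside 0.681%. By fold alone 0 members were 1.5-fold higher, beside 4.43%, and 0 were 1.5-fold lower, beside 3.05%. At an unadjusted p under 0.05 there were 36 members, 29 higher and 7 lower, or 10.2% beside 10.3% of all pairs. Here too depth was not matched, with a median of 982.5 contacts in members against 154 in all pairs. The largest ratios were 0.36 for 120670001 with 120880001 (281 against 204 contacts, adjusted p = 0.215 by the exact binomial test) and -0.39 for 120710001 with 120830001 (231 against 284, adjusted p = 0.142). The 1 member that passed at any fold was 120820001 with 120850001 in the middle and was singled out after its value was seen. It had 1802 contacts in wild-type forelimb, 1472 in forebrain, 1511 at the midhindbrain boundary and 1048 in the stop-cassette map, and a ratio of 0.19 (0.087 to 0.29; adjusted p = 0.0398, exact binomial test with Benjamini-Hochberg adjustment). It did not pass with the inflated variance, while 5 members passed without coverage factors and 2 with at least 50 counts required.

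Midhindbrain boundary and forebrain, the 2 neural tissues, differed by a log2 ratio of -0.0060 over all members, with an interval of -0.015 to 0.0029 that spans 0. With the left-out bins included the ratio was -0.019 and the interval, -0.027 to -0.010, no longer spanned 0. The parts differed nonetheless. The contacts of the last 2 bins were lower in midhindbrain boundary by a log2 ratio of -0.11 (-0.14 to -0.087), and those within the right part by -0.091 (-0.12 to -0.062). Those within the left part were higher, at 0.067 (0.040 to 0.093). Of the 29 bins, 11 were higher and 18 lower, and the bins at 120970001 (-0.12) and 120960001 (-0.10) were the lowest. By the 2-fold rule 0 members were called, beside 0.0113% of all 35298 pairs, and at any fold 1 was, again 0.282% of the members, beside 0.224%. By fold alone 0 members were 1.5-fold higher, beside 2.78%, and 0 were 1.5-fold lower, beside 3.55%. At an unadjusted p under 0.05 there were 38 members, 22 higher and 16 lower, or 10.7% beside 7.21% of all pairs. Depth was again not matched, with a median of 972 contacts in members against 153 in all pairs. The lowest ratio was -0.30 for 120870001 with 120960001 (403 against 492 contacts, adjusted p = 0.223 by the exact binomial test). The highest belonged to the member that passed at any fold, 120720001 with 120810001, with 525 contacts in midhindbrain boundary and 411 in forebrain, and 528 and 390 in wild-type and stop-cassette forelimb. Its ratio was 0.38 (0.19 to 0.57; adjusted p = 0.0384, exact binomial test with Benjamini-Hochberg adjustment), and it did not pass with the inflated variance; with at least 50 counts required 2 members passed. In observed over expected it stood at 0.77 in forebrain and at 0.98 to 1.01 in the other maps. The comparisons share maps: the forebrain map enters both comparisons in which its left part was the lower one.

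**Figure D5:**
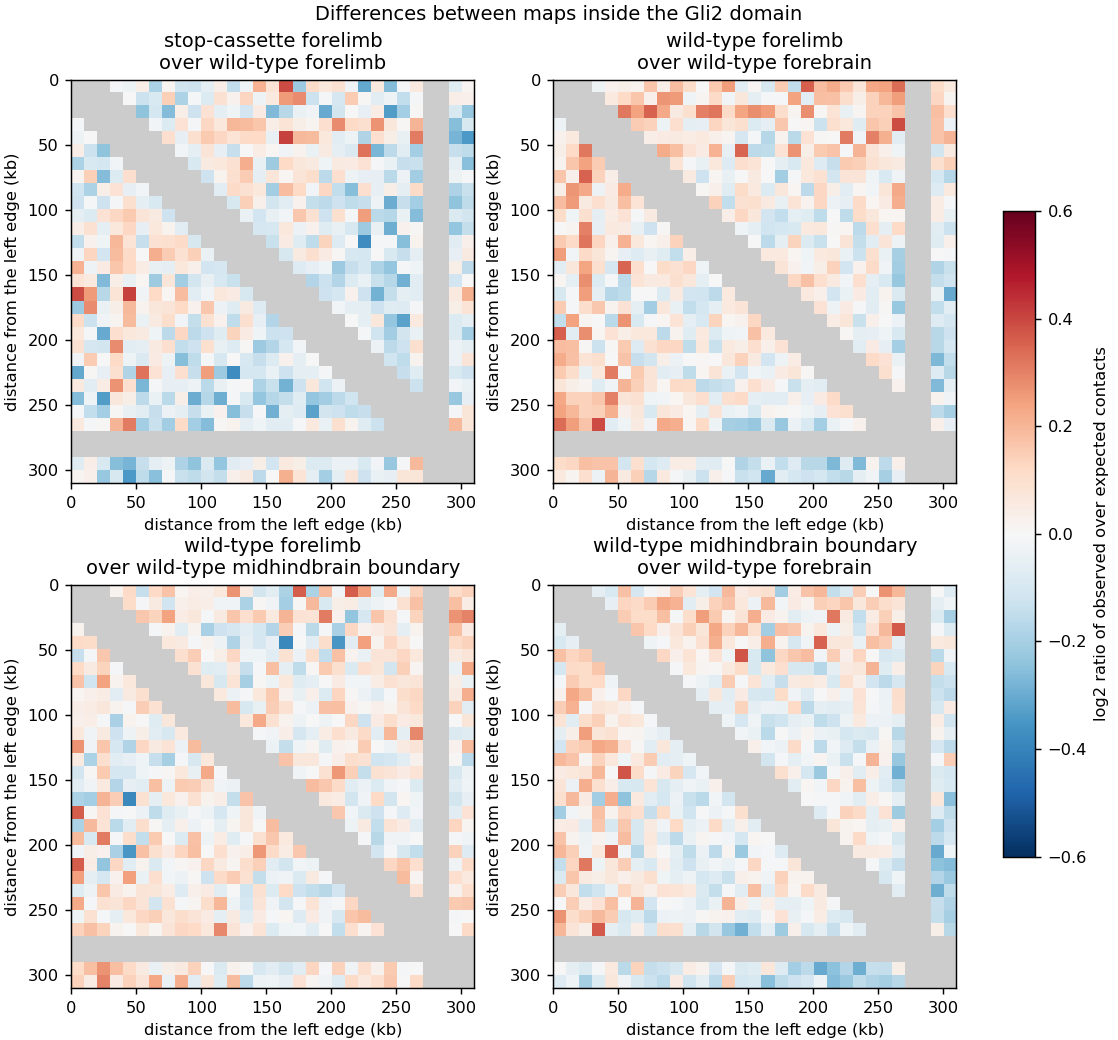
Log2 ratio of observed over expected contacts for each member at 30 kb or more in the 4 comparisons, with both axes in kb from the left edge; red is higher in the map named first, and grey marks pairs not tested and the left-out bins. The ratios lie between -0.39 and 0.41, and the bands of like colour are the left bins in forelimb over forebrain and the last 2 bins in midhindbrain boundary over forebrain.

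The differences between maps in this domain were of the size seen elsewhere in the same maps. Over 5 further domains of the region, at 30 to 300 kb, the log2 ratio of stop-cassette over wild-type forelimb ranged from -0.065 in the domain that adjoins on the right (120980001 to 121360000) to 0.030. The ratio of wild-type forelimb over forebrain ranged from -0.044 to 0.010 in them and that over midhindbrain boundary from -0.031 to 0.051. The Gli2 domain had the highest enrichment of the 6 domains in each map. The domain on its right had 1.11, 1.14, 1.13 and 1.06, the next highest in the 3 wild-type maps, while in the stop-cassette map the domain at 121360001 to 121910000, with 1.08, came before it, and the domain at 122470001 to 123080000 had 1.02, 1.01, 1.01 and 1.01. The order was different at the corners. The first and last 5 bins of the right neighbour met at 2.38, 2.69, 2.67 and 2.13, and those of the domain at 122470001 to 123080000 at 5.53, 7.40, 5.42 and 4.90, each above the 1.73 to 1.91 of the Gli2 domain. The domains differ in length and so in the distance at which their corners lie, and the levels were not tested against each other. All of them lie between boundaries called on the wild-type forelimb map, so the maps are not compared on equal terms.

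Of the contacts of the 29 kept bins at 30 kb or more, 29.1% ended inside the domain in wild-type forelimb, 27.5% in forebrain, 27.9% at the midhindbrain boundary and 26.2% in the stop-cassette map, with Wilson 95% intervals no wider than 26.0% to 26.3%. The left-out bins took 4.17%, 4.18%, 3.88% and 3.86%. The left side within 500 kb took 22.8%, 23.2%, 24.7% and 22.3%, and the right side within 500 kb 25.9%, 27.6%, 27.8% and 24.9%. The maps start at 120200001, less than 500 kb left of the domain, so the left class was cut short and has no farther class beyond it. Positions more than 500 kb to the right took 18.1%, 17.6%, 15.8% and 22.8%. The stop-cassette map thus had a larger share there than wild-type forelimb, and a smaller share in every other class. All classes together make up the whole, and the shares are not corrected for distance. Relative to the distance mean those far contacts stood at 0.978 (0.972 to 0.983) in wild-type forelimb, 1.01 (1.01 to 1.02) in forebrain, 0.937 (0.932 to 0.943) at the midhindbrain boundary and 1.08 (1.07 to 1.08) in the stop-cassette map. Contacts with the 200 kb on the left stood at 0.822, 0.856, 0.919 and 0.867, and with the 200 kb on the right at 0.751, 0.80, 0.829 and 0.809. Relative to the distance mean, the stop-cassette map was therefore above wild-type forelimb on both flanks, unlike in the shares. Wild-type forelimb thus had the highest level inside the domain and the lowest on both of its flanks, and midhindbrain boundary the highest on both flanks. The flank values overlap with the insulation by which the domain was drawn and are likewise a description. Both ends match boundaries called on the wild-type forelimb map, a choice that can favour a high inside and low flanks in that map. The order of the maps was not tested.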

How the data were processed

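The authors deposited, per group, 1 merged map of contact counts and 1 map of KR signal (Knight-Ruiz balancing, after which all bins have equal sums) in 10 kb bins. Per the labels' map names, reads passed HiCUP and mapping quality 30. Bowtie2 2.3.4.1, Juicer 1.7.6 and build mm9 stand in the submitters' processing notes; the balancing program was not given in the sources used here. Each deposited count equals its KR signal times the factors of both bins. Expected contacts were the mean KR signal of the map at that distance times these factors. Pair tests used bin pairs at 30 kb to 1 Mb with at least 20 counts over both maps. They compare the reads of 2 merged maps, not conditions. They were tested on simulated data that held counting error only, without the extra scatter seen between the real maps. For single pairs a prior of 0.5 was added to both counts before the log2 ratio. Named pairs are the 5 highest and 5 lowest groups by mean log2 over the maps, 2 at each end per comparison, of which the text gives the outermost, and 3 bins at each end. The members and lists were chosen with earlier results of these data known. Alternatives covered raw counts, another distance mean, left-out bins, distance and count filters and inflated variance. Sequences were not used here. Python 3.11.15, numpy 2.4.6, scipy 1.17.1 and matplotlib 3.10.9 were used.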

Additional observations from a re-analysis of the deposited data

How the results depend on the processing

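No paired analysis was possible because the libraries of each group were merged before deposit, and for the same reason no replicate could be left out. Values are given for wild-type forelimb, forebrain, midhindbrain boundary and stop-cassette forelimb, in this order. Without coverage factors the enrichment rose to 1.62, 1.59, 1.59 and 1.42; the kept bins ranked from 142 to 417 of 420 by coverage. It was 1.2, 1.18, 1.17 and 1.16 with the domain taken out of the distance mean, 1.21, 1.19, 1.17 and 1.16 with the left-out bins included, and 1.33, 1.31, 1.31 and 1.30 for pairs from 100 kb. The log2 ratio of stop-cassette over wild-type forelimb was -0.19 without coverage factors, and that of midhindbrain boundary over forebrain -0.019 with the left-out bins. Members with an adjusted p under 0.05 at any fold (exact binomial test) numbered 69 without coverage factors for stop-cassette over wild-type forelimb, against 0 with them. For forelimb over forebrain they numbered 11 without the factors and 0 with inflated variance, against 3. For forelimb over midhindbrain boundary they numbered 5 without the factors, 2 with at least 50 counts and 0 with inflated variance, against 1. For midhindbrain boundary over forebrain they numbered 2 with at least 50 counts and 0 with inflated variance, against 1. The share of contacts that ended inside the domain was 27.2%, 25.6%, 25.9% and 25.0% by KR signal and 14.2%, 13.4%, 13.2% and 12.2% from 100 kb. Without coverage factors the mean log2 level turned positive for 4 of the low pairs: 0.28 for 120690001 with 120810001, 0.33 for 120710001 with 120810001, 0.098 for 120710001 with 120790001 and 0.49 for 120690001 with 120760001. Over bin pairs of all distances tested, the scatter between maps was 1.31 to 1.60 times the counting variance.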
